A study of Mus musculus with 20 samples.

Results

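The 20 libraries of this mouse intestinal RNA-seq study were divided by the replicate number in their labels, replicates 1 to 4 (12 libraries) against replicates 5 to 7 (8 libraries), and the division was followed within each group and over all genes. All 20 libraries of the series fall on one side or the other. The groups were Apc Min with a control treatment (4 libraries in replicates 1 to 4 and 3 in replicates 5 to 7), Apc Min with DM-aKG, the cell-permeable dimethyl ester of alpha-ketoglutarate (4 and 2), and wild-type (WT) without treatment (4 and 3). Apc Min mice carry a truncated allele of Apc, whose protein restrains Wnt signalling by keeping beta-catenin low. No age, dose or time is given, and no second allele or agent is named. The labels of all 3 groups share a low glutamine medium, a growth medium for organoids and the tag of primary cells, whereas the titles name tissue. Libraries were made from total RNA. The labels do not say what the replicate numbers stand for, nor whether libraries came from separate animals, so the spread between libraries may be partly technical.

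The division was drawn after the values of Rn45s had been seen. Rn45s, the 45S precursor of the 18S, 5.8S and 28S ribosomal RNAs, chose the sets (they were selected on its values), and a difference between the sets is therefore given here as a description, with no test. The lowest Rn45s value within replicates 1 to 4 was 3835.6 RPKM (control replicate 1), and the highest within replicates 5 to 7 was 3620.9 RPKM (control replicate 6). A set difference is the mean of log2(RPKM + 1) in replicates 5 to 7 minus that in replicates 1 to 4 with group as a factor, and it stands with its standard error (SE). This scale understates the change of genes with low values. A limma adjusted p under 0.05 is used for set differences only to sort genes ("sorted as higher" or "sorted as lower"). The comparisons of DM-aKG with control within each set are given with their tests. The difference of that change between the sets is also given with its test, but it uses the same division. It equals the set difference in DM-aKG libraries minus that in control libraries, so its calls depend on how the sets were drawn.

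Total RNA is mostly ribosomal RNA, which library kits remove or avoid by selecting polyadenylated RNA, so what remains of Rn45s depends on the preparation as well as on the cells. The small intestine changes its genes along its length, with Gata4 and the fatty acid carrier Fabp1 proximal and the bile acid carriers Fabp6 and Slc10a2 in the ileum. Paneth cells sit at the base of the crypts and secrete alpha-defensins, lysozyme and the angiogenin Ang4, and are most frequent in the ileum. In bulk samples, fewer cells of a type and less RNA per cell cannot be told apart.

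Depth, estimated from the step between low values, was 21.24 to 28.46 M reads in replicates 1 to 4 and 25.78 to 29.28 M in replicates 5 to 7. Genes at 1 RPKM or more numbered 11015 to 12190 and 11416 to 12294. The summed RPKM was 325756 to 369409 in replicates 1 to 4 and 277634 to 340751 in replicates 5 to 7. The labels name organoids, which are epithelial cultures, but Myh11, the smooth muscle myosin (36.8 to 213 RPKM), and Jchain of plasma cells (34.4 to 689 RPKM) were present in every library.

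Of 12433 genes tested, 1080 (8.69%) were sorted as higher and 1311 (10.5%) as lower in replicates 5 to 7, with a median over all genes of 0.00976. Among these 2391 genes 2276 had the same sign in all 3 groups, a share that the sorting itself raises, since it used the difference over the same groups. In 108 genes (0.869%) every library of replicates 5 to 7 lay above every library of replicates 1 to 4 in each of the 3 groups, and in 306 (2.46%) below. Within single groups 114 genes were sorted in WT (0.917%), 1574 in control (12.7%) and 36 in DM-aKG libraries (0.29%). These counts take the spread from all 20 libraries, and from each group's own libraries they were 195, 23 and 1. The test of whether the set difference varied among the 3 groups called 0 genes in limma (0.0%), with 900 at an unadjusted p under 0.05. The narrower test of whether it differed between DM-aKG and control libraries called 26 and is given below as the difference in DM-aKG change. So the 0 does not mean that the set difference was alike in every group. All libraries were also scaled to 1 common sum of RPKM, counted without Rn45s and the haemoglobin genes. The median over all genes then moved from 0.010 to 0.114, and 2251 genes were sorted as higher and 531 as lower. This scaling evens out the summed RPKM, whose median was 344984 in replicates 1 to 4 and 311868 in replicates 5 to 7. The part of Rn45s and haemoglobin in the move was not tested. The genes below are those with the 12 largest differences each way whose sets did not overlap in any group, with members of gene lists.

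Several loci named for miRNAs differed between the sets. Their mature miRNA sequences from RefSeq (GRCm38.p6) are shown because 3 of these loci share most of their bases with an abundant messenger RNA. Capitals mark the seed, bases 2 to 8.
mmu-miR-6236: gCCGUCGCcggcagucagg
mmu-miR-682: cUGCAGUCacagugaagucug
mmu-miR-703: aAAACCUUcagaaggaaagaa
mmu-miR-686: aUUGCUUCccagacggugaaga
No 2 of these share a seed. Libraries of this kind do not capture mature miRNAs, so values at these loci count reads of longer RNA over the locus.

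Mir6236 (chromosome 9, 110281287 to 110281409, mm10, forward strand) held 310, 252, 312 and 281 RPKM in control replicates 1 to 4, and 94.5, 88.4 and 57.6 RPKM in replicates 5 to 7. The DM-aKG libraries held 276, 273, 231 and 265 RPKM, then 95.3 and 106 RPKM. The WT libraries held 542, 383, 308 and 265 RPKM, then 99.8, 125 and 87.8 RPKM. The sets did not overlap in any group, and the highest value of replicates 5 to 7 lay below the lowest value of replicates 1 to 4 across all groups (set difference -1.70 ± 0.13). No GENCODE M21 transcript of another gene held either of the 2 18-base windows of the 19-base mature sequence. The rest of the locus and the sequence of Rn45s were not searched, so whether the locus shares reads with ribosomal RNA was not tested.

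Lars2, the mitochondrial leucyl-tRNA synthetase (chromosome 9, 123366927 to 123462666, forward strand), followed the same division. It held 184, 180, 185 and 153 RPKM against 83.7, 69.0 and 50.1 RPKM in control libraries, and 164, 169, 157 and 165 RPKM against 64.5 and 66.7 RPKM with DM-aKG. In WT it held 239, 233, 177 and 186 RPKM against 77.7, 82.9 and 67.4 RPKM. Its 12 libraries of replicates 1 to 4 all lay above the 8 others (set difference -1.38 ± 0.08), as did those of Rn45s (-1.03 ± 0.19), the gene of the rule. No 25-base window was shared between Lars2 transcripts and the noncoding loci Gm26917, Gm42418 and AY036118, which overlap ribosomal RNA units. The sequence of Rn45s itself was not compared, so whether Lars2 shares reads with it was not tested.

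**Figure D1:**
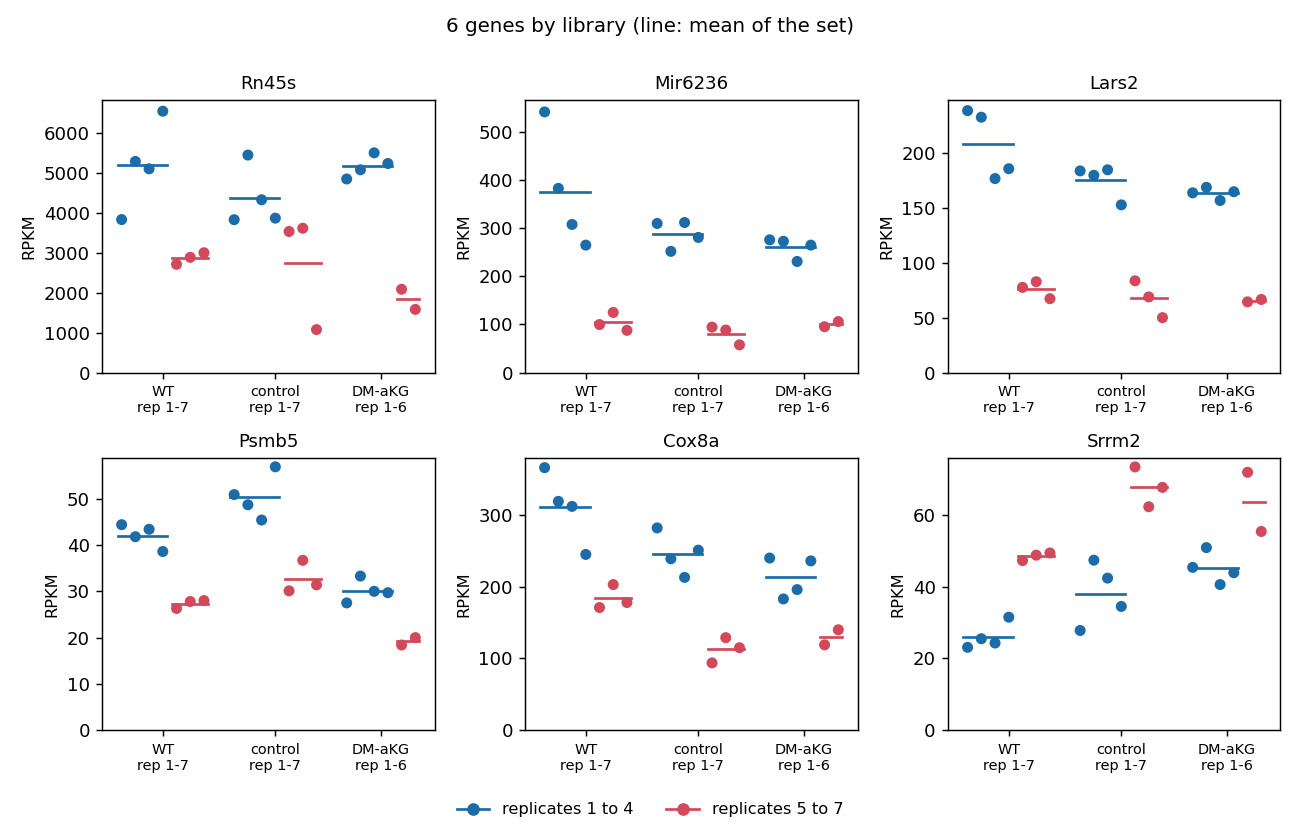
RPKM of 6 genes (vertical axes, linear from 0) in each library, by group and replicate, with the mean of each set as a line. Mir6236, Lars2, Psmb5 and Cox8a were lower and Srrm2 higher in replicates 5 to 7 in all 3 groups. Rn45s chose the sets and was lowest in control replicate 7 (1078.1 RPKM).

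Mir682, Mir703 and Mir686 share their sequence with messenger RNAs. Of the 96 bases of the Mir682 hairpin, on chromosome 13 (75645046 to 75645141, forward strand), 95 lie in 18-base windows that also occur in Rpl37a, a protein of the large ribosomal subunit. The hairpin is shown with those bases in capitals, because a read within an unbroken run of them could come from Rpl37a or from this locus. How such reads were assigned was not tested.
Mir682 hairpin: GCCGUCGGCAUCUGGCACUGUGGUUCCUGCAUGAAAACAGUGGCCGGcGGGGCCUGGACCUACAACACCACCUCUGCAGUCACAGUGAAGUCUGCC
Rpl37a held 270 to 357 RPKM in control replicates 1 to 4 and 185 to 222 RPKM in replicates 5 to 7 (set difference over all groups -0.50 ± 0.07), and Mir682 was lower too (-0.70 ± 0.16). Mir703 shares 108 of 109 bases with Eef1a1, a translation elongation factor, and the pair differed: Mir703 was lower in replicates 5 to 7 (-0.59 ± 0.11) and Eef1a1 was not (0.01 ± 0.10). The Mir703 difference was -0.87 in control and -0.82 with DM-aKG but -0.14 in WT, where the sets overlapped.

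Mir686 lies within Psmb5, a catalytic subunit of the proteasome (chromosome 14, 54614119 to 54618022, reverse strand), and all 109 of its bases occur in Psmb5 transcripts. Psmb5 itself held 50.9, 48.7, 45.4 and 56.9 RPKM against 30.1, 36.7 and 31.4 RPKM in control libraries, and was lower in replicates 5 to 7 in every group (-0.61 ± 0.05). Mir686 ran the other way. It was 1.22e-10 to 0.811 RPKM across replicates 1 to 4 and 1.42 to 9.29 RPKM across replicates 5 to 7, with no overlap (2.28 ± 0.23). The locus passed the filter of 1 RPKM in at least 6 libraries only through replicates 5 to 7, so the filter itself favoured this direction. At the estimated depths a single read over 109 bases is worth 0.313 to 0.432 RPKM, so 11 of the 12 values in replicates 1 to 4 are under 1 read. Between 116 and 154 values above 0 but under 0.001 RPKM stood in each library.

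Genes of ribosomes and of the respiratory chain were lower together. Of 65 cytosolic ribosomal protein genes, 48 were sorted as lower and 0 as higher, with a median difference of -0.31 (WT -0.13, control -0.39, DM-aKG -0.40), and in 24 the sets did not overlap in any group. Rplp1, of the ribosomal stalk, held 928, 774, 909 and 892 RPKM against 454, 478 and 512 RPKM in control libraries (-0.67 ± 0.06). Rps29, of the small subunit, held 599, 485, 608 and 563 RPKM against 320, 304 and 341 RPKM (-0.67 ± 0.06). In both genes the sets stood apart in every group. Rpl22l1, a paralogue of Rpl22, also stood apart (-0.79 ± 0.07).

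Of 40 nuclear-encoded genes of the respiratory chain, 33 were sorted as lower and 0 as higher (median -0.34, from -0.28 with DM-aKG to -0.42 in control). Cox8a, a small subunit of cytochrome c oxidase (chromosome 19, 7215153 to 7217616), held 282, 239, 213 and 251 RPKM against 93.8, 129 and 115 RPKM in control libraries. In WT it held 366, 319, 312 and 245 RPKM against 171, 203 and 178 RPKM, and with DM-aKG 240, 183, 196 and 236 RPKM against 119 and 140 RPKM. The sets did not overlap in any group (-0.87 ± 0.10). Atp5e, the epsilon subunit of ATP synthase (-0.96 ± 0.10), and Ndufa2, of complex I (-0.83 ± 0.11), stood apart likewise. Uqcrfs1, the Rieske protein of complex III, differed less (-0.51 ± 0.06).

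The proteasome, vacuolar pump and mitochondrial ribosome were added as lists after the values had been seen, so their direction was known when they were chosen. Among 17 tested proteasome genes 11 were sorted as lower and 0 as higher, with Psmb4 at -0.69 ± 0.06. Among 18 genes of the vacuolar proton pump 13 were sorted as lower and Atp6v1g2 as higher (median -0.29), and among 75 mitochondrial ribosome genes 31 as lower and 0 as higher (median -0.21). Other genes by the rule were Tmsb4x, an actin-sequestering peptide (-0.84 ± 0.13), Bok, of the BCL2 family (-0.81 ± 0.14), Id3, an inhibitor of helix-loop-helix factors (-0.79 ± 0.12), Oaz1, the antizyme of ornithine decarboxylase (-0.73 ± 0.12), and Cops9, of the COP9 signalosome (-0.72 ± 0.08).

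Some genes of splicing were higher in replicates 5 to 7. Srrm2, the scaffold of nuclear speckles (chromosome 17, 23790532 to 23824741), held 23.1, 25.5, 24.3 and 31.5 RPKM against 47.3, 48.8 and 49.4 RPKM in WT, and 27.8, 47.4, 42.4 and 34.5 RPKM against 73.4, 62.3 and 67.7 RPKM in control libraries. With DM-aKG it held 45.4, 50.9, 40.6 and 43.9 RPKM against 71.9 and 55.4 RPKM. The sets did not overlap in any group (0.75 ± 0.10). Prpf39, a splicing factor of the U1 particle, differed by 0.73 ± 0.09, and Pnn, a speckle protein, by 0.56 ± 0.07. Of 50 tested genes of splicing and its kinases, a list added after the values had been seen, 29 were sorted as higher and only Srsf9 as lower (median 0.28, WT 0.33, control 0.28, DM-aKG 0.12). Within DM-aKG libraries 0 were sorted and 15 of 50 were negative.

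The other genes of the rule were of mixed function. Fubp1, a regulator that binds single-stranded DNA, held 4.47, 4.25, 5.10 and 5.70 RPKM against 10, 9.57 and 11.5 RPKM in WT, and 5.04, 5.62, 4.01 and 5.41 RPKM against 5.77 and 7.51 RPKM with DM-aKG, where the sets lay close (0.77 ± 0.10 over all groups). Mlxipl, the carbohydrate-responsive factor ChREBP, differed by 0.69 ± 0.10, Ern2, a stress sensor of the endoplasmic reticulum in mucosal cells, by 0.66 ± 0.11, Nufip2, an RNA-binding protein, by 0.65 ± 0.07, and Supt20, of the SAGA complex, by 0.65 ± 0.09. Gca, a calcium-binding protein (0.61 ± 0.09), the zinc finger gene Zscan26 (0.59 ± 0.07), Nfat5, a factor of osmotic stress (0.59 ± 0.10), and Mdm4, an inhibitor of p53 (0.58 ± 0.07), followed. Of 233 tested Zfp genes, a family also added later, 76 were sorted as higher and 7 as lower (median 0.17). Among 11 listed long noncoding RNAs 5 were sorted as higher (Meg3, Snhg11, Gas5, Mir17hg and Firre) and Snhg8 as lower. Malat1, a retained nuclear transcript, did not follow (0.04 ± 0.13).

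The set differences went with the length of the transcript and its GC content over the whole table. Among 12253 genes with a GENCODE M21 transcript, the Spearman correlation across genes between transcript length and the set difference was 0.51 (WT 0.33, control 0.53, DM-aKG 0.33), and for GC content it was -0.37. Genes share libraries and are not independent. In the shortest 10% of genes, 64 to 1322 bases, 398 of 1226 genes (32.5%) were sorted as lower and 36 as higher, with a median of -0.22. In the longest 10%, from 6646 bases, 278 (22.7%) were sorted as higher and 16 as lower, with a median of 0.17. The level of a gene went with its difference too. Of the 10% of genes with the highest mean log2 value 30.7% were sorted as lower (median -0.20), and of the 10% with the lowest 1.88% (median 0.04), where the added 1 RPKM compresses differences. The part of level apart from length was not tested.

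The families above fall at these ends. The median transcript had 1106 bases for cytosolic ribosomal proteins, 1363 for the respiratory chain and 1311 for the proteasome, against 3283 for all genes tested, 4037.5 for splicing and 3686 for Zfp genes. Within the shortest 10%, 321 of 1125 genes outside the 5 lower families were sorted as lower (median -0.21). Length and GC content had a correlation across genes of -0.26. In each tercile of GC content the long tercile of genes had the higher median, from 0.06 to 0.18 against -0.19 to -0.03 in the short tercile.

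**Figure D2:**
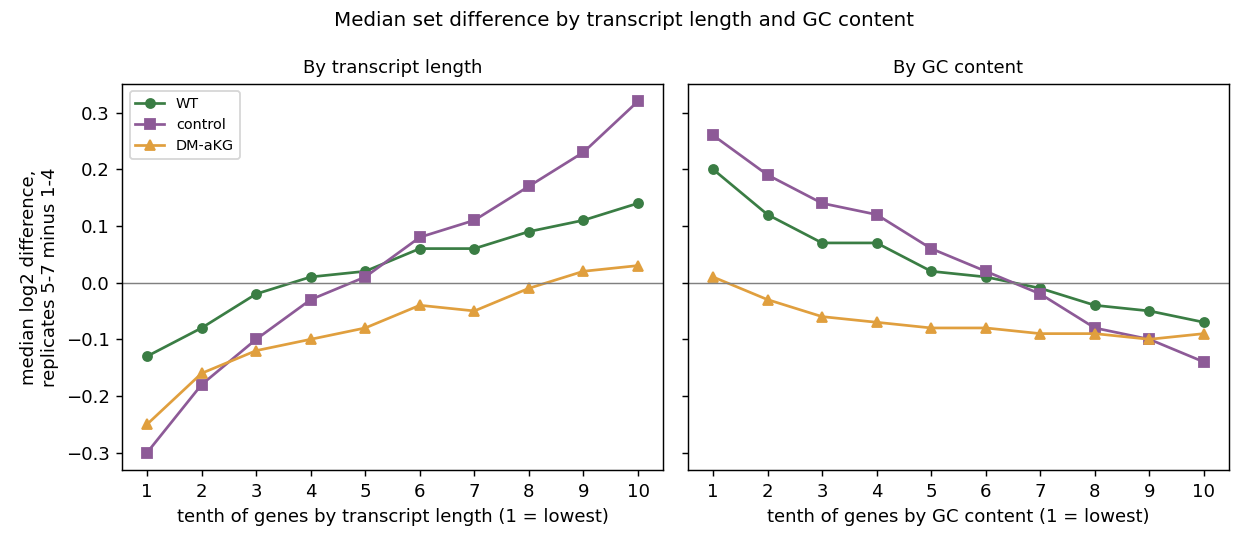
Median set difference in log2(RPKM + 1) (vertical axis) for genes in deciles of transcript length (left) and GC content (right), with 1 line for each group. With length the medians ran from -0.13 to 0.14 in WT, from -0.30 to 0.32 in control and from -0.25 to 0.03 in DM-aKG libraries.

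Single libraries show how far the length relation belongs to the sets. The median deviation of the longest 10% of genes from their own means, minus that of the shortest 10%, was -0.57 to -0.02 in control replicates 1 to 4 and 0.22 to 0.53 in replicates 5 to 7. In WT it was -0.34 to 0.03 and 0.03 to 0.20, and with DM-aKG -0.04 to 0.17 and 0.22 to 0.39. The ranges did not overlap in control or DM-aKG libraries and came close in WT, where replicate 4 (0.027) and replicate 6 (0.032) were neighbours. After each library was centred within bins of length and then of GC content, an alternative chosen after seeing the data, 634 genes were sorted as higher and 673 as lower, 912 of them also sorted without it. The median for cytosolic ribosomal proteins was then -0.10, with 18 of 65 lower, that for the respiratory chain -0.14 and that for splicing 0.18.

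Markers of the proximal small intestine lay lower in replicates 5 to 7 in control libraries and higher in DM-aKG libraries. Over the 26 tested the median difference was -0.61 in control (22 of 26 negative, 2 sorted as lower), 0.41 with DM-aKG (18 of 26 positive, 0 sorted) and 0.15 in WT, and -0.04 over all groups with 0 sorted. Their summed level was 3199 to 6111 RPKM against 1293 to 2782 RPKM in control and 2476 to 4766 RPKM against 4797 to 5338 RPKM with DM-aKG, with no overlap in either. In WT it was 1405 to 7067 RPKM against 2032 to 5012 RPKM, the second set within the first. Whether this difference varied among the groups was not called for any single gene. Brush border genes of enterocytes had the same signs, with 27 of 28 negative in control (median -0.49) and 20 of 28 positive with DM-aKG (median 0.15). Their sums in control were 12467 to 22151 RPKM against 7833 to 10601 RPKM, with no overlap, and with DM-aKG the sums overlapped. Whether the proximal difference is one of segment or of enterocytes in general was not tested. Of 14 ileal genes Pyy and Amn were lower (median -0.20), of 11 of colon and caecum Aqp4 was higher, and of 14 Hox genes 0. The counts for ileum and colon are near the shares of all genes, 10.5% lower and 8.69% higher. Single markers ranged widely inside both sets. Gata4 was 22.1, 1.60, 18 and 0.486 RPKM in WT replicates 1 to 4 and 12.2, 12 and 12.4 RPKM in replicates 5 to 7, so the second set lay inside the first. With DM-aKG it was 0.131 to 2.05 RPKM, then 0.141 and 12.3 RPKM. Fabp1 was 962, 14.8, 251 and 4.67 RPKM in WT replicates 1 to 4 and 37.8, 893 and 317 RPKM in replicates 5 to 7. Fabp6 ran from 158 RPKM (WT replicate 1) to 9727.9 RPKM (WT replicate 2) within replicates 1 to 4 alone. Onecut2, a proximal transcription factor, was 7.09 to 18.8 RPKM across control libraries and at most 0.466 RPKM in WT, with a set difference of 0.03 ± 0.22. Slc10a2, the ileal bile acid transporter, differed by -0.01 ± 0.49.

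Lists for tissue share, feeding state and proliferation likewise had medians that varied by group, though the test of variation among the groups called 0 genes. Over all groups 0 genes were sorted of smooth muscle (21 tested), fibroblasts and matrix (21), fat oxidation induced by fasting (28), chylomicron assembly (21), red cells (10) and the cell cycle (29). Of 20 endothelial genes 2 were higher, near the 8.69% of all genes, and of 16 of enteric neurons and glia 3 were lower, against 10.5% of all genes. Within groups several of these lists had medians of opposite sign. All 21 smooth muscle genes had a negative difference in WT (median -0.42), with a sum of 1899 to 2454 RPKM against 1487 to 1714 RPKM and no overlap, whereas the control median was 0.15 and the sums overlapped. Chylomicron genes had a median of -0.79 in control with 4 of 21 sorted as lower (sums 9842 to 18508 RPKM against 5218 to 6841 RPKM) and 0.20 with DM-aKG. Cell cycle genes were positive for 29 of 29 in WT (median 0.36) and negative for 29 of 29 with DM-aKG (median -0.63, sums 162.7 to 200.3 RPKM against 99.71 to 124.2 RPKM). Fat oxidation had medians of -0.37 in control and 0.31 with DM-aKG, and red cells of 1.15 and -1.24. Genes of 1 list share the same libraries, so their common sign is 1 observation, and the part of cell make-up in the set differences was not tested. Myh11 held 194, 154, 145 and 174 RPKM against 123, 132 and 143 RPKM in WT, and 91.5, 88.1, 53.2 and 36.8 RPKM against 51.7, 140 and 84.1 RPKM in control libraries. Of 19 clock genes Per2 (0.48 ± 0.09) and Per3 (0.45 ± 0.13) were sorted as higher, a share of the list near the 8.69% of all genes, and Arntl (-0.10 ± 0.19) and Dbp (-0.12 ± 0.17) were not. Red cell Hba-a1 ran from 3.22 to 130 RPKM within replicates 1 to 4 and from 6.56 to 101 RPKM within replicates 5 to 7.

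**Figure D3:**
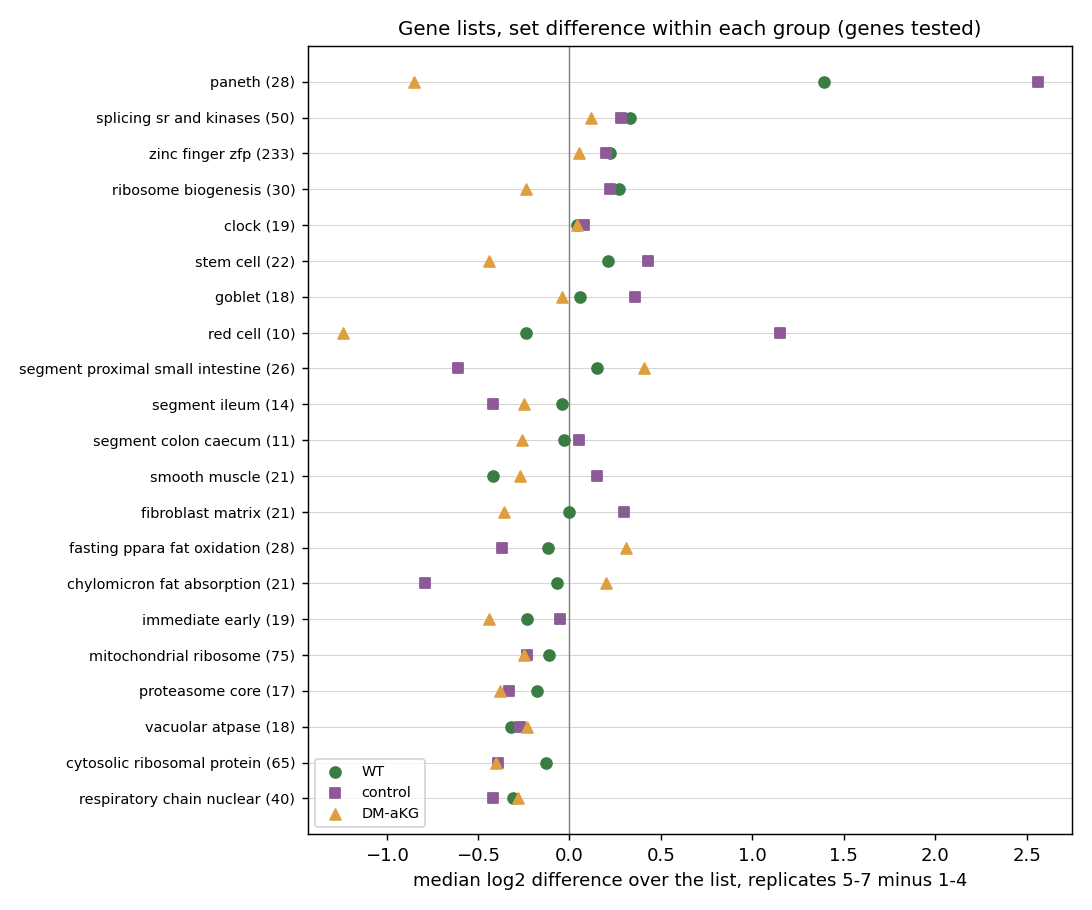
Median set difference in log2(RPKM + 1) over the tested genes of 21 lists (horizontal axis), with 1 marker for each group and the number of genes tested in brackets. Ribosomal, respiratory, proteasome and vacuolar ATPase lists lay below 0 and splicing above 0 in all 3 groups, whereas the Paneth list was at 1.39 in WT, 2.56 in control and -0.85 in DM-aKG libraries.

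Paneth cell genes had a median above 0 in WT and control libraries and below 0 in DM-aKG libraries. Of 28 tested, 14 were sorted as higher and 0 as lower over all groups, although all 28 had a negative difference with DM-aKG. In control libraries the sum of 27 alpha-defensin genes was 1001, 1118, 887.6 and 954.8 RPKM in replicates 1 to 4 and 4850, 23485 and 12534 RPKM in replicates 5 to 7. In WT it was 3948, 11690, 12946 and 14111 RPKM, then 39533, 14258 and 28668 RPKM. With DM-aKG the order was the other way, 30505, 21121, 46831 and 34076 RPKM, then 23065 and 10800 RPKM. The sets did not overlap in WT or control libraries and overlapped with DM-aKG. The ileal list, from the segment where Paneth cells are most frequent, summed to 1088 to 11882 RPKM in replicates 1 to 4 and 1433 to 5896 RPKM in replicates 5 to 7, and its part in the Paneth difference was not tested. The sum of alpha-defensins is given because these genes are near-identical copies between which reads can be split.

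Lyz1, the Paneth lysozyme, followed the same order. It held 197, 226, 176 and 274 RPKM against 560, 2069.6 and 1164.9 RPKM in control libraries, and 373, 725, 991 and 1214.9 RPKM against 3454.0, 1542.2 and 2963.4 RPKM in WT. With DM-aKG it held 2601.2, 1345.4, 3135.6 and 2480.3 RPKM against 1808.6 and 1125.6 RPKM. Ang4 held 2.29 to 8.44 RPKM against 33.1 to 211 RPKM in control libraries. Of other crypt markers, Lgr5 of stem cells differed by 0.51 ± 0.30 and Olfm4 by 1.13 ± 0.55, neither sorted. The goblet mucin Muc2 differed by 0.34 ± 0.14.

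**Figure D4:**
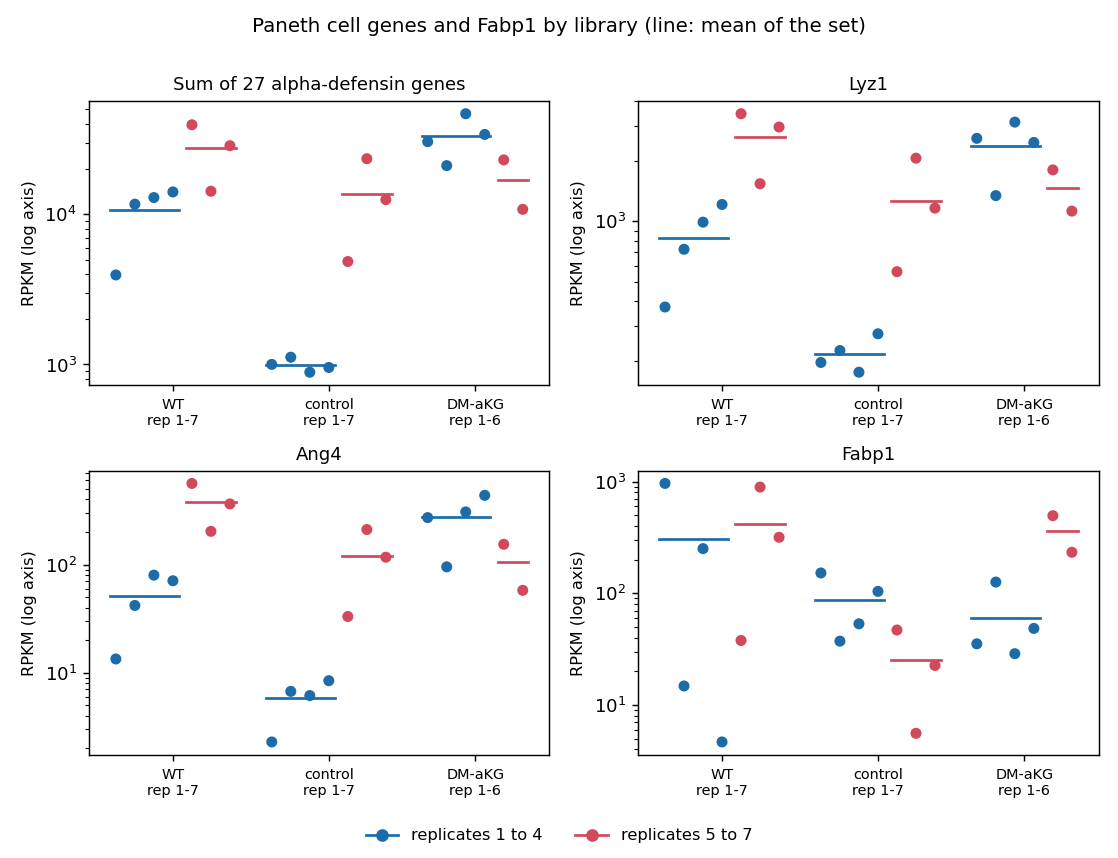
RPKM (logarithmic axes) of the summed alpha-defensins, Lyz1, Ang4 and the proximal marker Fabp1 in each library, with the mean of each set as a line. The 4 control libraries of replicates 1 to 4 held 887.6 to 1118 RPKM of alpha-defensins, below all 16 others, whereas Fabp1 was spread over both sets.

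Defa22 stands for the family. Its promoter is shown from RefSeq (GRCm38.p6, chr8:21162027-21162326, forward strand, 250 bases before to 50 after the start) because the alpha-defensins differed together. Capitals mark 2 motifs, each searched on both strands. The first is CTTTGA, the core of sites bound by the TCF factors of the Wnt pathway, which reads as its complement TCAAAG here. The second is TATAAA, and no letter is shared between matches.
Defa22 promoter: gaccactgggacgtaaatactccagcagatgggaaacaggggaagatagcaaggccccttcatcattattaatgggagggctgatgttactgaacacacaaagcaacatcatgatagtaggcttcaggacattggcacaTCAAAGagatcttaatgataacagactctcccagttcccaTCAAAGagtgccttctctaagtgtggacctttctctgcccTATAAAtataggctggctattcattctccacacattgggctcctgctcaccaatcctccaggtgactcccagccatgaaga
Of the 15 alpha-defensin genes on the Paneth list 6 had an entry, and all 6 held both motifs. Among promoters of genes tested, 12.2% held CTTTGA and 7.7% TATAAA. The copies resemble each other, so the 6 are not independent, and a match in letters is not a bound site.

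The change with DM-aKG was tested within each set. Within replicates 1 to 4, 2634 genes (21.2%) passed limma's adjusted p of 0.05, of which 489 rose (3.93%) and 2145 fell (17.3%) with DM-aKG against control, and within replicates 5 to 7, where only 2 treated libraries stand, 3560 passed (28.6%), of which 457 rose (3.68%) and 3103 fell (25%). The median over all genes was -0.107 and -0.208. Both sets called 1664 genes, 63.2% of the calls in replicates 1 to 4 and 46.7% of those in replicates 5 to 7, and 1660 of them had the same direction. The lean toward lower values depended on the scaling: after quantile normalization 1040 rose and 1227 fell in replicates 1 to 4, and 1165 rose and 1494 fell in replicates 5 to 7. The length relation of this change was not alike in the sets, with a correlation across genes of 0.27 in replicates 1 to 4 and -0.04 in replicates 5 to 7.

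The test of the difference between the sets called 26 genes (0.209%), 23 with a lower (0.185%) and 3 with a higher (0.0241%) log2 change in replicates 5 to 7, and 1460 at an unadjusted p under 0.05. Of the 22 tested genes named Defa, 16 were called in this test. Defa5 rose with DM-aKG in replicates 1 to 4, by 5.97 ± 0.58, from 16.5, 20.1, 14.4 and 13.8 RPKM to 947, 721, 1691.2 and 1109.3 RPKM. In replicates 5 to 7 it was 177, 838 and 458 RPKM in control and 757 and 265 RPKM in treated libraries, a difference of 0.13 ± 0.75 that did not pass. The difference between the sets was -5.83 ± 0.95 (limma adjusted p = 0.0187). Over the 22 Defa genes the median change was 4.78 with 21 called higher in replicates 1 to 4 and 0.37 with 0 called in replicates 5 to 7. The result rested on few libraries: without DM-aKG replicate 6 the test called 0 genes, and without control replicate 6 it called 4.

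Hsd17b11, a lipid droplet dehydrogenase, Ces2c and Gramd1b had a higher change in replicates 5 to 7. Hsd17b11 held 243, 174, 149 and 229 RPKM in control and 195, 168, 173 and 202 RPKM in treated libraries of replicates 1 to 4, with overlap. In replicates 5 to 7 it rose from 103, 82.1 and 143 RPKM to 406 and 297 RPKM (1.70 ± 0.22, difference between the sets 1.78 ± 0.28, limma adjusted p = 0.0171). Ces2c, a carboxylesterase of the enterocyte, rose likewise, from 67.4, 48.1 and 88.0 RPKM to 208 and 174 RPKM (difference between the sets 1.45 ± 0.29, limma adjusted p = 0.0469), and so did Gramd1b, a sterol carrier, by 0.93 ± 0.13 (difference between the sets 0.83 ± 0.16, limma adjusted p = 0.0435). Aqp4, a water channel, rose in replicates 1 to 4 (0.94 ± 0.21) and fell in replicates 5 to 7 (-0.99 ± 0.28), with a difference of -1.93 ± 0.35 (limma adjusted p = 0.0258). Magohb, of the exon junction complex, fell only in replicates 5 to 7 (-0.64 ± 0.11, difference -0.74 ± 0.14, limma adjusted p = 0.0435).

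Calls in some lists differed in number between the sets, with none for the difference between the sets. Over all genes 3.93% were higher and 17.3% lower with DM-aKG in replicates 1 to 4. In replicates 5 to 7 the shares were 3.68% and 25%. The proximal list had a median DM-aKG change of -0.08 in replicates 1 to 4 and 1.06 in replicates 5 to 7. Of its 26 genes 0 were higher and 4 lower, then 5 higher and 1 lower. The 4 lower in replicates 1 to 4 are near the share of all genes. Chylomicron assembly went from 0.08 to 1.10, with 1 of 21 lower, then 9 of 21 higher, and fat oxidation from 0.19 to 0.75, with 0 and 11 of 28 higher. Brush border genes had 3 of 28 and 16 of 28 higher (medians 0.30 and 1.08). Smooth muscle had 13 of 21 and 0 of 21 higher (medians 0.84 and 0.49). Cell cycle genes had 0 of 29 and 23 of 29 lower (medians -0.24 and -1.10). The difference between the sets passed for 0 genes of these lists, so that the lists differ between the sets was not shown. Among cytosolic ribosomal proteins the median change was -0.20 and -0.19.

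**Figure D5:**
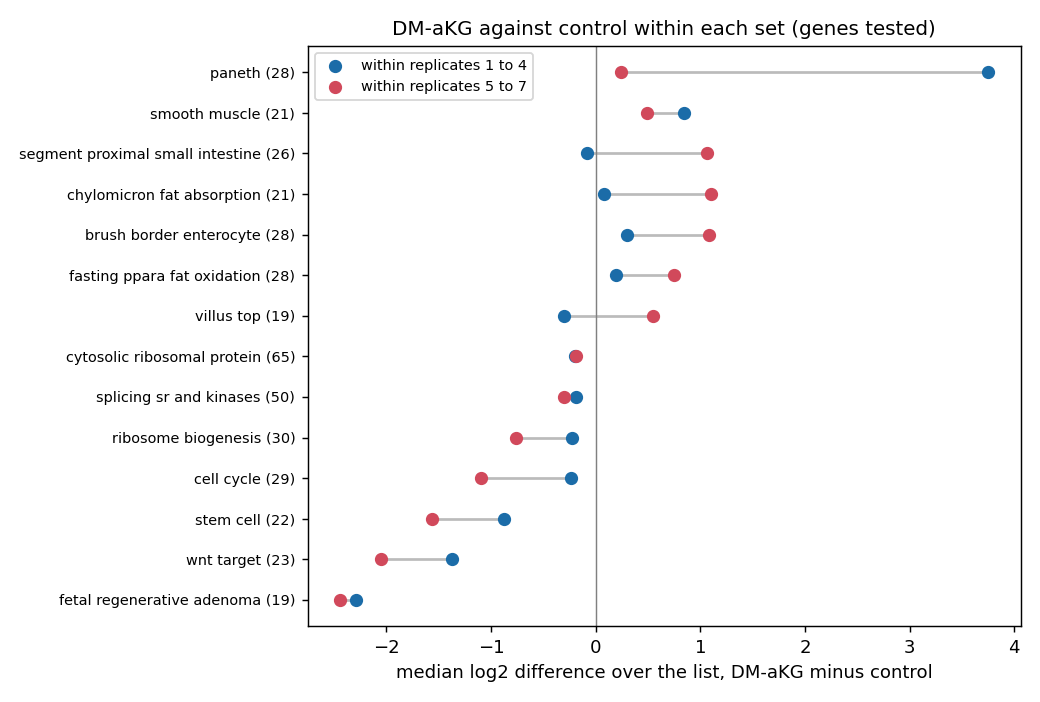
Median log2 change with DM-aKG over control (horizontal axis) for 14 gene lists within replicates 1 to 4 (4 against 4 libraries) and within replicates 5 to 7 (2 treated against 3 control). The Paneth list lay at 3.75 and 0.24, while fetal and adenoma genes lay at -2.29 and -2.44.

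The step from WT to control Apc Min called 6206 genes (49.9%) in replicates 1 to 4 and 5273 (42.4%) in replicates 5 to 7. No gene passed the test of the difference between the sets in limma (0.0%), with 439 at an unadjusted p under 0.05. Defa22, shown above, was among the genes that did not pass: WT held 421, 1126.8, 1347.0 and 1371.9 RPKM and control 91.8, 91.3, 73.9 and 43.4 RPKM in replicates 1 to 4, against 3610.4, 1173.6 and 2538.4 RPKM and 456, 2144.3 and 1195.1 RPKM in replicates 5 to 7.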

How the data were processed

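Bulk RNA-seq of total RNA was measured in 20 libraries. The authors deposited 1 table of values per gene and library with no unit in its header. Its values behave as RPKM (reads scaled to gene length and library depth), a unit inferred here from the values and not stated in the deposited table. CASAVA 1.8, HISAT2 2.0.4, Partek and mm10 are named per the submitters' processing notes, while the role of each, and the annotation, are not stated in the sources used here. Low values came in steps that gave the depth per library, but 66.19 to 71.55% of values lay within 0.1 read of a whole number, so no count test was run. Of 24795 genes, 4272 were at 0 throughout, 26 had date-like names, and no mitochondrially encoded gene was listed.

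Genes at 1 RPKM or more in at least 6 libraries (12433) were tested on log2(RPKM + 1) with limma 3.58.1 (trend, robust, statmod 1.5.0, R 4.3.3) and Benjamini-Hochberg adjustment over all of them. Set differences came from a fit with group and set, and the other comparisons from the 6 combinations of group and set. Transcript length and GC content were those of each gene's longest GENCODE M21 transcript. Tables and figures were made with Python 3.11.15, numpy 2.4.6, pandas 2.3.3 and matplotlib 3.10.9, and the fits were tested on simulated data.

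The members and the gene lists were chosen with earlier results of these data known. Named genes are the 12 largest set differences each way among those sorted, with a mean log2 value of at least 2 and sets that did not overlap in any group, the genes called for the difference in DM-aKG change between sets, members of the lists and genes fixed by name. The lists of proteasome, vacuolar pump, mitochondrial ribosome, Zfp and splicing genes were added after the values had been seen. Groups came from the labels. Alternatives covered scaling, filter, pseudocount, library weights, a smooth muscle covariate, Apc Min libraries only, a block on replicate number and leaving out each library.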

Additional observations from a re-analysis of the deposited data

Results flagged for a closer look

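In groups of 4 libraries, 6 of 123 checks of a gene in a group (4.88%) had 1 library far from the others, and chance alone gives about 1 in 20. The gap to the nearest library as a share of the group's range was 0.852 for Lars2 in control replicate 4 (153 RPKM), 0.865 for Psmb4 in control replicate 2 (96 RPKM) and 0.859 for Psmb4 in DM-aKG replicate 2 (90 RPKM). It was 0.852 for Bok in WT replicate 4 (4.91 RPKM), 0.870 for Defa5 in WT replicate 1 (38.7 RPKM) and 0.833 for Defa22 in WT replicate 1 (421 RPKM). All 6 libraries lay in replicates 1 to 4, since only groups of 4 or more could be checked.

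The change with DM-aKG differed between the sets for 26 genes by limma's test of the difference, given here as the log2 change in replicates 5 to 7 minus that in replicates 1 to 4. Among alpha-defensins it was -5.83 for Defa5, -4.94 for Defa20, -4.78 for Defa35, -4.74 for Defa22, -4.69 for Defa2, -4.68 for Defa21 and -4.67 for Defa36. It was -4.50 for Defa3, -4.48 for Defa37, -4.17 for Defa30, -3.89 for Defa26, -3.86 for Defa23, -3.82 for Defa31, -3.73 for Defa17, -3.63 for Defa34 and -3.55 for Defa24. The predicted genes gave -7.44 for Gm7861, -5.12 for AY761184, -4.99 for Gm14851 and -4.29 for Gm7849, and the Paneth angiogenin Ang4 gave -5.24. Some values of Gm7861 were as low as 7.03e-07 RPKM, so its change rests on fractions of reads. Outside these genes it was -1.93 for Aqp4, -0.74 for Magohb, 1.78 for Hsd17b11, 1.45 for Ces2c and 0.83 for Gramd1b.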

How the results depend on the processing

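No named set difference and no called difference in DM-aKG change reversed its sign under the alternatives run. The balance of genes sorted over the whole table did turn in some. It was 1080 higher and 1311 lower in the main fit, 2251 and 531 with the common sum, and 2384 and 1816 with array weights. Of 57 named set differences, 27 were no longer sorted with Apc Min libraries only and 3 after centring on length and GC content, and of the 26 genes called for the difference in DM-aKG change, 26 were lost with the replicate block. The within-group counts rest on a spread pooled over all libraries. Only 2 DM-aKG libraries stand in replicates 5 to 7, which limits every comparison there. Leaving out 1 library at a time gave 699 to 1358 genes higher and 1028 to 1509 lower in replicates 5 to 7, 4 to 222 in WT, 487 to 2267 in control, 3 to 42 in DM-aKG, and 0 to 28 for the variation among groups. The ends came without control replicate 7 (699), WT replicate 7 (4), control replicate 1 (487) and control replicate 5 (28). For DM-aKG against control it gave 3995 to 5251 with set as a factor, 1785 to 2994 in replicates 1 to 4, 2245 to 3801 in replicates 5 to 7 (2245 without DM-aKG replicate 5) and 0 to 36 for the difference. For control against WT it gave 5057 to 6402, 3740 to 5535 and 0 to 0. Listed genes gave 18 to 51 higher and 96 to 120 lower. Scaling all libraries to 1 common sum, counted without Rn45s and haemoglobin, gave 2251 higher and 531 lower, 42 in WT and 4 in DM-aKG. It gave 19 for the variation among groups, and 63 higher and 56 lower among listed genes. Quantile normalization gave 37 in WT, 4 in DM-aKG, 14 for the variation among groups and 63 listed genes lower. Median-of-ratios scaling gave 6 in DM-aKG. With DM-aKG against control, 17.6% of calls with set as a factor were higher, against 49.3% after quantile normalization and 43.7% after median-of-ratios scaling. Array weights gave 2384 higher, 2220 in WT, 5047 in control, 0 in DM-aKG, 29 for the variation among groups, 4135 for DM-aKG in replicates 1 to 4, 8907 and 1 for control against WT in replicates 5 to 7 and its difference, and 76 listed genes higher. A filter of 5 RPKM gave 630 higher, 3142, 1743 and 2257 for DM-aKG with set as a factor and in each set, and 4108 and 3360 for control against WT, over 7957 genes. No filter gave 2 for the variation among groups and 14 for the difference in DM-aKG change. A smooth muscle covariate gave 56 in DM-aKG, 17 for the variation among groups and 2248 for control against WT in replicates 1 to 4. With Apc Min libraries only, 111 were higher and 406 lower, 4 and 61 among listed genes. Centring on length and GC content, chosen after seeing the data, gave 634 higher and 673 lower, 51 in WT, 408 in control, 5 in DM-aKG and 40 listed genes lower. Each group's own libraries, also added, gave 195 in WT, 23 in control and 1 in DM-aKG. The cause of these moves was not tested.

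Replicate numbers did not pair the libraries as a whole: 19 same-number pairs had correlations of -0.38 to 0.59 (median -0.04), and 4 of 20 libraries correlated best with their own number. Control and DM-aKG libraries correlated at 0.59 for replicate 5 and 0.48 for replicate 6. The 2 DM-aKG libraries there deviate from their mean as mirror images, so these values cannot settle whether the numbers pair in that set. With the replicate block, 1053 genes were higher and 1131 lower, 36 were sorted in WT, 1359 in control and 2 in DM-aKG, and the difference in DM-aKG change called 0.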

Other observations

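Over all genes tested, 8.69% were sorted as higher and 10.5% as lower. Of 14 enteroendocrine genes tested, 2 were sorted each way. Sct, which encodes secretin (-0.85 ± 0.21), and Pyy, which encodes peptide YY (-0.56 ± 0.19), were sorted as lower in replicates 5 to 7. The granule protein Chgb (0.57 ± 0.17) and the transcription factor Neurod1 (0.33 ± 0.07) were sorted as higher. Of 7 histone genes whose messages largely lack a poly(A) tail, 3 were sorted as lower, with Hist1h1c at -0.68 ± 0.09, Hist1h2ac at -0.61 ± 0.16 and Hist1h4i at -0.34 ± 0.12. Of 19 immediate early genes 2 were sorted as lower, the share of all genes: Jund (-0.58 ± 0.08) and Atf3 (-0.56 ± 0.17). Of 19 glucocorticoid-responsive genes Cdkn1a alone was sorted (-0.42 ± 0.13), of 25 genes of cholesterol synthesis Ebp alone (-0.27 ± 0.09), and of 7 tuft cell genes 0. Values are set differences with their SE, given with no test.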
